A study of Mus musculus with 6 samples.

Results

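Lynx1 and the Ly6 genes encode small surface proteins that share a cysteine-rich fold, the LY6/uPAR domain. Most are held on the outer face of the cell membrane by a glycosylphosphatidylinositol (GPI) anchor. Lynx1 resembles a snake neurotoxin and restrains nicotinic acetylcholine receptors, chiefly in neurons. The Ly6 genes are better known in blood cells, where several of their products serve as markers of lineage and of activation, and some of them answer to interferon. The group was taken as every array probe whose only annotated symbol is Lynx1, or Ly6 followed by a letter. That gave 13 probes of 11 genes, out of 13738 probes with 1 symbol for 10698 genes. The group was chosen by the treated over untreated ratio of Lynx1 in these same arrays, so the treated over untreated values of all members are given as a description, with no test.

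The study compared total RNA of mouse RAW 264.7 cells, an established macrophage line (written RAW 264.4 in some of the descriptions), after 1 h. One group was left untreated. The other received lipopolysaccharide (LPS, 100 ng/ml), a cell wall component of Gram-negative bacteria, together with LPS-binding protein (LBP, 100 pM), which hands LPS to its receptor. Both RNAs were hybridised to each of 6 arrays, 3 with the treated RNA in Cy5 and 3 with it in Cy3, and the arrays of each orientation are numbered as sets 1 to 3. A value is the log2 ratio of treated over untreated RNA, so that 1 is a doubling, and means are given ± SD over the averages of the 3 sets. No clear pairing of the arrays by set number was seen in the data (last paragraph), and this SD can be far smaller than that over single arrays. The deposited direction is likely Cy5 over Cy3, because the descriptions call the Cy5 RNA the test, and all signs would turn under the other reading.

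Across the arrays, between 8.99% and 23.9% of the 16281 probes were listed at exactly 0, which was taken as no measured ratio, and 11442 probes had none of these zeros. Ratios carry no level, so the macrophage label could not be checked by how strongly its markers are expressed. Of the marker genes with a probe, 8 of 9 for macrophages, 8 of 8 for neutrophils, 7 of 8 for lymphocytes, 2 of 9 for fibroblasts and epithelium and 4 of 5 for neurons had a ratio on all 6 arrays. Cxcr2 (0.33) among the neutrophil markers and Cd79a (0.20) and Cd4 (0.47) among the lymphocyte markers were called higher in treated RNA (limma, adjusted p under 0.05), as was the macrophage marker Adgre1 (0.55), and no marker was called lower. Of all 11442 probes, 12.5% were called. Adgre1 passed under all 12 alternatives (last section). Cd79a failed under 8, among them any 1 set left out (0.24, 0.20 and 0.17 without sets 1, 2 and 3). Cxcr2 (0.29) and Cd4 (0.52) did not pass without set 1. Cxcr2 also failed with its probes averaged (0.11) and with treated RNA in Cy5 alone (0.20), and Cd4 with treated RNA in Cy3 alone (0.30). The part of other cell types in the results below was not tested. In bulk RNA, fewer cells of a type and less RNA per cell cannot be told apart.

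Of the 13 member probes, 7 were complete, with a ratio on every array, and 6 lacked at least 1. Among these 7, Lynx1 stood far above the rest. Its complete probe averaged 2.97, and the 6 Ly6 probes lay between -0.20 and 0.12. The sign was the same throughout for 2 of the 7, Lynx1 and Ly6d, where 18.9% of all complete probes did.

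**Figure D1:**
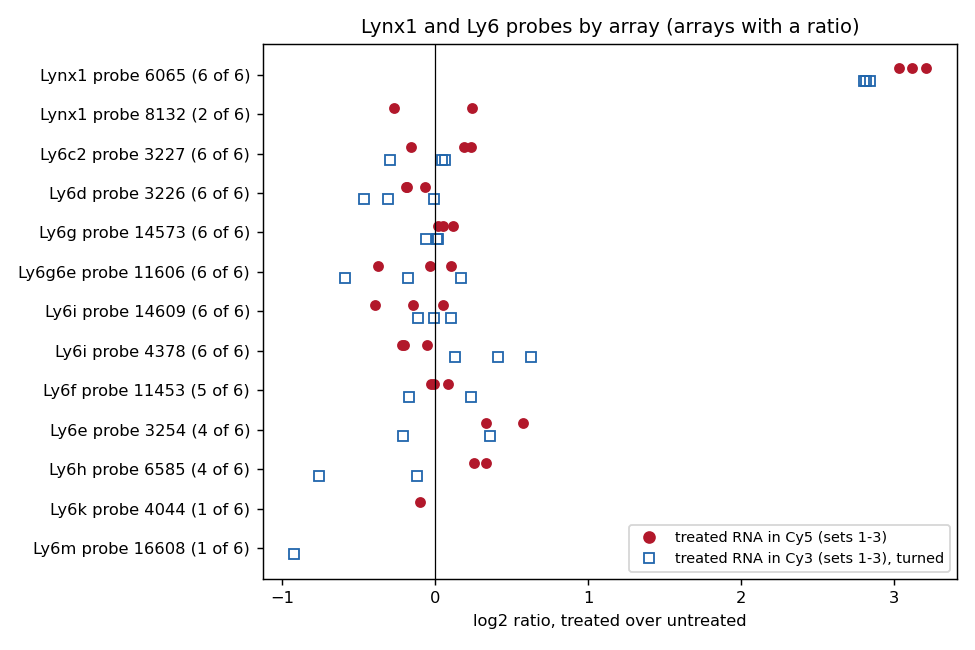
Each row is a member probe and each point 1 array, on a log2 scale of treated over untreated RNA; filled circles are arrays with treated RNA in Cy5, open squares those with it in Cy3 after the sign was turned, and the row labels give the number of arrays with a ratio. Probe 6065 of Lynx1 lies between 2.81 and 3.21 on 6 arrays, and its other probe lies near 0 on 2.

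Lynx1 was represented by probes 6065 and 8132, which the annotation ties to the same RefSeq transcript. Probe 6065 gave 3.04, 3.12 and 3.21 on the Cy5 arrays (treated RNA in Cy5) and 2.81, 2.84 and 2.82 on the Cy3 arrays, for sets 1, 2 and 3. All 6 arrays were high, and the lowest Cy5 array lay above the highest Cy3 array. The mean of 2.97 ± 0.046 corresponds to 7.84-fold more signal from treated RNA, the 11th highest mean of 11442 probes. The SD over single arrays was 0.17, larger than over sets, since averaging removes the gap between orientations.

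Probe 8132 behaved otherwise. It had a ratio on 2 arrays only, both with treated RNA in Cy5, at 0.24 in set 1 and -0.27 in set 3, and was listed at 0 on the other 4. On those same arrays probe 6065 was higher by 2.80 and 3.48. A gap of that kind was rare among all pairs. There were 2540 pairs of probes with 1 symbol and a ratio on these 2 arrays. Of these, 22 pairs (0.866%), Lynx1 among them, differed by at least 2 in the same direction on both. The smaller of each pair's gaps had a median of 0.099. Such a gap needs a large ratio on at least 1 probe, and Lynx1 was chosen for one. The share therefore does not tell how often probes of a strongly raised gene disagree. The ratios alone do not tell which Lynx1 probe reports the transcript, so the 7.84-fold value belongs to probe 6065 and not to the gene as a whole. The probes' own sequences were not used here.

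The 5 probes with 1 symbol whose 6 array ratios lay nearest to those of probe 6065, by root mean square difference, were found among 9961 candidates. Btg2, a growth inhibitor, was nearest at a difference of 0.19 and averaged 3.04. Nfkbiz, which encodes a nuclear regulator of NF-kappaB, followed at 0.23 with a mean of 2.87. The next were the cytokine genes Il1b, at 0.25 with a mean of 2.94, and Tnf, at 0.26 with a mean of 2.74, and then Myc, a growth regulator, at 0.29 with a mean of 2.79. These means belong to the single probes named. With complete probes averaged by gene, Nfkbiz was at 3.72, Il1b at 2.54 and Tnf at 2.44, while Btg2 and Myc stayed at 3.04 and 2.79. The likeness covers size as well as shape over 6 arrays that share RNA kinds. The differences among these 5 are smaller than the SD over arrays of Btg2 (0.35), so their order should not be read closely.

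**Figure D2:**
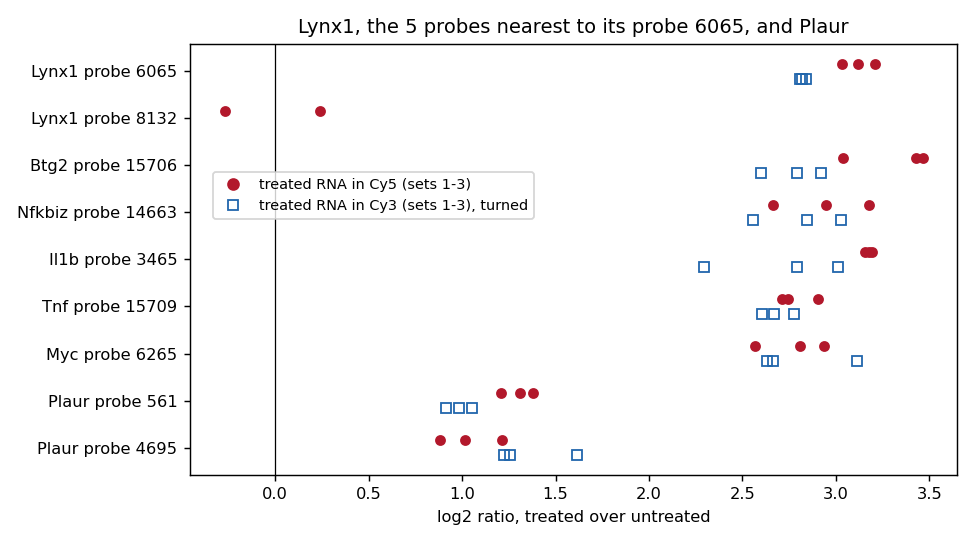
Points are single arrays on a log2 scale of treated over untreated RNA, filled for treated RNA in Cy5 and open for Cy3, for the probes of Lynx1, the 5 probes nearest to probe 6065 and those of Plaur. Probe 8132 of Lynx1 sits near 0, and both Plaur probes lie between 0.88 and 1.62.

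Ly6d, a surface marker of lymphoid progenitors and of squamous epithelium, had the lowest mean of the complete members. It gave -0.063, -0.18 and -0.19 on the Cy5 arrays and -0.31, -0.46 and -0.0056 on the Cy3 arrays. All 6 arrays were below 0, the last one barely, and the orientations overlapped. The mean was -0.20 ± 0.11, a ratio of 1.15 in favour of untreated RNA, and 14.3% of all complete probes had a larger absolute mean.

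The genes whose products mark myeloid cells stayed near 0. Ly6c2, one of the genes behind the Ly6C antigen of inflammatory monocytes, gave 0.19, 0.23 and -0.16 in the Cy5 arrays and 0.069, -0.29 and 0.049 in the Cy3 arrays. High and low arrays occurred in both orientations, and the mean was 0.015 ± 0.099. Ly6g, the neutrophil antigen, gave 0.022, 0.050 and 0.12 in Cy5 and 0.015, 0.021 and -0.058 in Cy3. Its orientations did not overlap, though all 6 values lay within 0.12 of 0. The mean of Ly6g was 0.028 ± 0.0085, where the SD over single arrays was 0.056. Orientations failed to overlap for 3 of the 7 complete member probes, those of Ly6g, Lynx1 and 1 of Ly6i, and for 36.1% of all complete probes.

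Ly6i, a close relative of Ly6c2, had 2 complete probes that parted. Probe 4378 gave -0.20, -0.049 and -0.21 on the Cy5 arrays, and 0.63, 0.13 and 0.41 on the Cy3 arrays. Every Cy5 array was below 0 and every Cy3 array above, so that its mean of 0.12 ± 0.088 joins orientations of opposite sign. Probe 14609 gave 0.054, -0.39 and -0.14 in Cy5 and -0.0039, 0.10 and -0.11 in Cy3, without order between orientations and with a mean of -0.081 ± 0.093. The Ly6i probes had opposite mean signs.

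Ly6c2, Ly6g and Ly6f have promoters that are much alike. RefSeq's promoter table (GRCm38.p6, from 250 bases before to 50 after the start) held entries for 3 of the 11 member genes, and the entries below, in lower case with the longest run that all 3 share in capitals, read 5′ to 3′ along each gene. They come from chr15:75111922-75112221 (minus strand) for Ly6c2, chr15:75155079-75155378 (plus strand) for Ly6g and chr15:75268171-75268470 (plus strand) for Ly6f.
Ly6c2: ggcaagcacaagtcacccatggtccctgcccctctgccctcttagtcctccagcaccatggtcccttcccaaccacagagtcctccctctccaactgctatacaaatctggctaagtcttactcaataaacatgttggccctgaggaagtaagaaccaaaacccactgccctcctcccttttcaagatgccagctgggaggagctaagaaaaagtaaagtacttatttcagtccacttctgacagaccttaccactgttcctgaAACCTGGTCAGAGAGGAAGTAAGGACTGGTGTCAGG
Ly6g: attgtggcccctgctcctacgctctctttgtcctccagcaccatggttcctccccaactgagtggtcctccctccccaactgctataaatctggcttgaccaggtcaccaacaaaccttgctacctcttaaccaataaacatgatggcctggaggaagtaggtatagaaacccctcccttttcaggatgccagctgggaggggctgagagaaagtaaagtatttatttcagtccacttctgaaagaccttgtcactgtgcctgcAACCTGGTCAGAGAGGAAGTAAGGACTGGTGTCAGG
Ly6f: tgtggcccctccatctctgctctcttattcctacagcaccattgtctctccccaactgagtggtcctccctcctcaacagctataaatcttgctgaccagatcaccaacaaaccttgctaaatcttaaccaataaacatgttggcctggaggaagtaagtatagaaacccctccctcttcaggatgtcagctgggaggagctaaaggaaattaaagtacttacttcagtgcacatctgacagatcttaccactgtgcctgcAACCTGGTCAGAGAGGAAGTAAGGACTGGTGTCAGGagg

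Aligned pairwise, Ly6f and Ly6g had 88.6% identical bases of 297, Ly6c2 and Ly6g 86.8% of 272, and Ly6c2 and Ly6f 84.6% of 273. The same alignment, which leaves end gaps free, was run against the promoter of Plaur, shown further below. It gave 72.5% of 240 with Ly6f, 71.7% of 233 with Ly6g and 67.8% of 87 with Ly6c2. The 36 bases in capitals occur in 4 of 32851 promoter entries, all of Ly6c2, Ly6g and Ly6f. Where a gene had more than 1 entry, the one giving the longest shared run was used. Likeness of promoters does not tell whether transcript from 1 gene reaches another's probe, and this was not tested. Ly6i had no promoter entry. Whether the probes of Ly6c2, Ly6g, Ly6f and Ly6i each read only the named gene was not tested, and their means all lay near 0. Ly6f had 5 ratios, at -0.0086, -0.027 and 0.082 in Cy5 and -0.17 and 0.23 in Cy3 (sets 1 and 2). They fell on both sides of 0 with a mean of 0.022.

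The remaining Ly6 members were measured thinly or unevenly. Ly6g6e, which lies on chromosome 17 in contrast to the 10 other members on chromosome 15, had 6 ratios, at -0.035, -0.37 and 0.11 in Cy5 and -0.18, 0.17 and -0.59 in Cy3. Its mean was -0.15 ± 0.079, from 2 arrays above 0 and 4 below, and the SD over single arrays was 0.29. Ly6e, an interferon-induced gene whose product restricts some viruses, had 4 ratios, at 0.33 and 0.58 in Cy5 (sets 2 and 3) and -0.21 and 0.36 in Cy3 (sets 1 and 3). Thus 3 of 4 were above 0, with a mean of 0.26 and only set 3 measured in both orientations. Ly6h, known from brain, gave 0.26 and 0.34 in Cy5 (sets 1 and 3) and -0.12 and -0.76 in Cy3 (sets 1 and 2), so that its sign followed the orientation. Ly6k, known from testis, had a ratio of -0.10 on 1 array, and Ly6m one of -0.92 on 1 array. Of 78 member values, 19 (24.4%) were listed at 0, against 14.2% of the values of all probes. The annotation used here named no probe for 11 further protein-coding Ly6 genes of the RefSeq table, among them Ly6a and Ly6c1.

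The dye effect is the mean Cy5 over Cy3 ratio over both orientations, in which a treatment effect cancels, so members could be tested on it. None of the 7 complete probes passed (limma, adjusted p under 0.05), and 2 had an unadjusted p under 0.05. Over all probes 0.0524% passed and 27.8% had an unadjusted p under 0.05. The largest dye effect among members was that of Ly6i probe 4378, at -0.27 ± 0.17 (adjusted p = 0.134), with Cy3 brighter on all 6 arrays, as one dye was brighter on all 6 for 14.1% of complete probes. Its adjusted p ranged from 0.0539 to 0.461 over 8 alternatives. For Lynx1 probe 6065 the dye effect was 0.15 ± 0.042 (adjusted p = 0.120, from 0.0527 to 0.457 over the alternatives), small beside its treated over untreated mean of 2.97. The other 5 lay between -0.078 and 0.073. Absolute dye effects had a median of 0.073 among members and 0.076 among all complete probes.

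**Figure D3:**
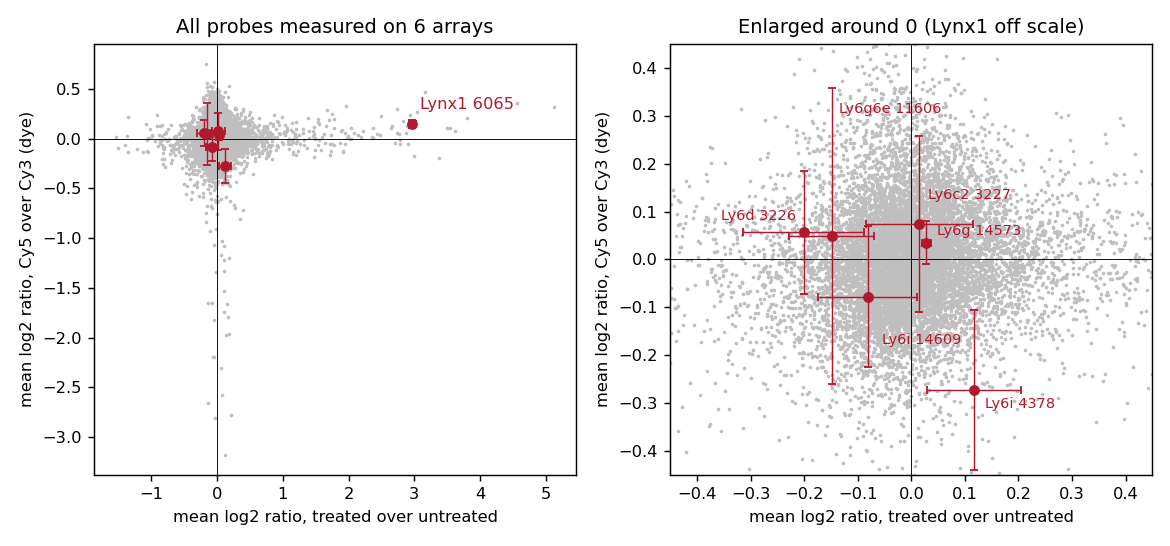
Each grey point is a probe measured on 6 arrays, with its mean log2 ratio of treated over untreated RNA across and of Cy5 over Cy3 upward; red points are the 7 complete member probes with bars of ± SD over 3 sets. Lynx1 probe 6065 lies far right at 2.97 with a dye effect of 0.15, and Ly6i probe 4378 lies lowest of the members at -0.27.

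Among other genes of the LY6/uPAR fold, the one that changed was Plaur, which encodes the receptor of urokinase (uPAR) and gives the fold part of its name. Its probe 561 gave 1.31, 1.38 and 1.21 in Cy5 and 1.05, 0.92 and 0.98 in Cy3, and its probe 4695 gave 1.21, 1.01 and 0.88 in Cy5 and 1.62, 1.23 and 1.26 in Cy3. All 12 values were high, on both probes. Plaur rose by 1.14 ± 0.042 on the first (limma, adjusted p = 3.8e-05) and by 1.20 ± 0.19 on the second (adjusted p = 0.000273). The Cy5 arrays were the higher ones for the first probe and the lower ones for the second. Of 31 genes in this list 15 had a probe and 8 a complete one. Of the 9 complete probes, 2 rose and 0 fell, both of Plaur, beside 6.85% of all probes called higher and 5.63% lower. Both Plaur probes passed under all 12 alternatives, 1 of which averages them. The list's median was 0.050, against -0.0078 over all probes, and its lowest mean was that of Lypd2, at -0.039 ± 0.084. Cd59a, which shields cells from complement, was at -0.015 ± 0.095, and Gpihbp1, which holds lipoprotein lipase on capillaries, at 0.0091 ± 0.024.

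The promoter of Plaur (chr7:24462233-24462532, plus strand, RefSeq, GRCm38.p6) is shown because Plaur is the relative that rose, with a match to the AP-1 motif TGANTCA in capitals, which begins 69 bases before the start.
Plaur: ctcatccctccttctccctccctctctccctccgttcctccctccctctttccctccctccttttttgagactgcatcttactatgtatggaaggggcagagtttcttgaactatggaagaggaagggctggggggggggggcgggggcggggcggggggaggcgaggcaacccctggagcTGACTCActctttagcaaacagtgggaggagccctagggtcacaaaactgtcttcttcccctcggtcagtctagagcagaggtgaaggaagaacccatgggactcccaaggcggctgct

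Searched on both strands, TGANTCA was present in 7.81% of all 32851 promoter entries and in none of those printed for Ly6c2, Ly6g and Ly6f. The NF-kappaB motif (5.8% of entries), the interferon-stimulated response element (0.17%) and the cyclic AMP element TGACGTCA (1.79%) had no match in these 4 windows. A match or its absence in such a window is a description of its letters.

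Lynx1 acts on nicotinic receptors, and its relatives need the enzymes of the GPI anchor. Of the nicotinic receptor subunits and genes of acetylcholine handling, 16 of 24 had a probe and 13 a complete one. Of their 16 complete probes 0 were called (limma, adjusted p under 0.05, with 3 at an unadjusted p under 0.05), beside 12.5% of all probes called and 26.5% at an unadjusted p under 0.05. The median was 0.027, against -0.0078 over all probes. The highest mean was that of Tmem35a, which encodes a chaperone of nicotinic receptors, at 0.11 ± 0.29, and at -0.052 without set 2. The lowest was that of a probe of Ache, which encodes acetylcholinesterase, at -0.15 ± 0.12. Another Ache probe was at 0.11 ± 0.059, and Chrna7, a subunit gene of the macrophage's nicotinic receptor, was at -0.088 ± 0.15. On the Cy5 arrays alone 2 of these probes were called higher, the higher Ache probe (0.30) and that of Chrne, and on the Cy3 arrays alone 1, of Chrna4, was called lower. For GPI anchor synthesis, attachment and remodelling, 19 of 34 genes had a probe, all with a complete one. Of 24 complete probes 0 were called (limma, with 4 at an unadjusted p under 0.05), beside the same shares of all probes, and the median was -0.021. The extremes were Pigh at -0.17 ± 0.11 and Piga at 0.17 ± 0.10, both parts of the enzyme that starts the anchor, and Piga was called without set 3 (0.22) and when the 6 arrays entered separately (0.17, with or without a replicate block). On the Cy5 arrays alone Dpm1 was called lower.

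The measured genes beside Lynx1 lay near 0 or slightly below it. In RefSeq's order on chromosome 15, the 5 genes on either side included 6 with a probe, of which 3 had a complete one. These were Them6, at -0.015 ± 0.25, Lypd2, at -0.039, and Ly6d, at -0.20. Slurp1 was listed at 0 on all arrays, Ly6k had the single ratio given above, and Gml averaged -0.17 over 5 arrays. Slurp2, the immediate neighbour whose old name SLURP-2 is also listed as a synonym of Lynx1, had no probe named for it in the annotation used here. Arc, an immediate early gene that lies 10 places from Lynx1 and is named here after its values were seen, averaged 2.07 over 5 arrays, from 1.83 to 2.32. The probes of the 9 genes between them, where measured, had no mean above 0.084.

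**Figure D4:**
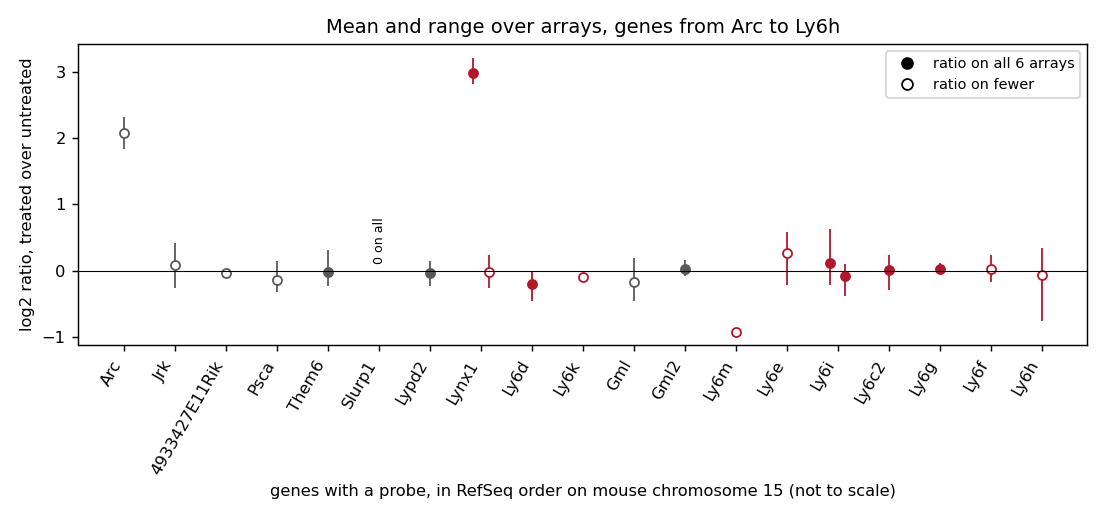
Genes with a probe are set in RefSeq's order on mouse chromosome 15, not to scale, with the mean log2 ratio of treated over untreated RNA as a point and the range over arrays as a line; members are red and open points have a ratio on fewer than 6 arrays. Arc (2.07) and Lynx1 probe 6065 (2.97) stand high, and the genes between them lie near 0.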

How the data were processed

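The authors' deposited values are log2 ratios of both channels, 1 for each of 16281 probes and 6 arrays. Their base follows from the numbers themselves: multiplied by log10 of 2, over 99.6% of an array's measured ratios become decimals of 6 digits (relative tolerance 1e-13). Scanner, background correction and normalization: not given in the sources used here. Array medians lay between 0.0043 and 0.016, and how the arrays were centred remained unknown. The sign was turned on the 3 arrays that carried treated RNA in Cy3, and exact 0 was set to missing. Same-numbered arrays were averaged to 3 sets, and the averages were tested against 0 over all 11442 complete probes with limma 3.58.1 (R 4.3.3, two-sided, 2 residual and 3.99 prior degrees of freedom), with Benjamini-Hochberg adjustment and calls at an adjusted p under 0.05. Dye effects were tested likewise on unturned averages. Only the main fit was tried on simulated data, with independent noise of 1 size for every probe and no zeros or set effects. That setting is simpler than these data. Whether sets came from separate cultures is not in the labels, and the p-values reflect the spread among these samples alone, and that spread may be technical, and the number of arrays limits the precision. Probe symbols come from GEO's platform annotation; RefSeq (GRCm38.p6) changed 0 of them.

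The members, gene lists and rules were chosen with earlier results of these data known. All member probes, the 5 probes nearest to Lynx1, list members that passed or lay at a list's ends, and Lynx1's 5 neighbours on either side are named, and others (the higher Ache probe, Cd59a, Gpihbp1, Chrna4, Chrna7, Chrne, Dpm1 and Arc) were named after their values were seen. Alternatives concerned zeros, incomplete probes, single sets, single orientations, the set number, centring, quantile normalization and averaging by gene, and were run for named probes outside the group after the data were seen.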

Additional observations from a re-analysis of the deposited data

Results flagged for a closer look

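Ly6i probe 4378 gave ratios below 0 on all 3 arrays with treated RNA in Cy5 and above 0 on all 3 with it in Cy3. The orientations' means differed by -0.54 (Cy5 minus Cy3). The difference itself was tested as the dye effect and did not pass (limma, adjusted p = 0.134).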

How the results depend on the processing

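Lynx1 probe 6065 was chosen for its ratio and not tested on it. Its mean ran over the 12 alternatives from 2.82 (treated RNA in Cy3 alone) to 3.12 (Cy5 alone), and from 2.95 to 3.00 with single sets left out. Alternatives on zeros, incomplete probes, the set number and averaging by gene left it at 2.97, since they cannot move the mean of a gene's only complete probe. The other Lynx1 probe was incomplete and did not enter this mean. The range therefore says nothing of the gap between the Lynx1 probes. Ly6d and Ly6g6e stayed below 0 under the same 12, though those that could not move Lynx1 could not move them either. Ly6c2, Ly6g and both Ly6i probes changed sign under at least 1 of the 12. With zeros kept as ratios, the 6 incomplete member probes averaged from -0.15 to 0.18. Zeros leave most thin members without a test, and signal over background was unknown.

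Over all probes, 1428 were called, 837 with treated RNA in Cy3 alone, and between 621 (without set 1) and 1245 (without set 3) with 1 set left out, where fewer averages enter. Without set 2 the count was 927. Same-numbered arrays correlated at 0.0056, -0.26 and -0.064 in their deviations. The estimate of the correlation within sets used for the replicate block was 0.081. No clear pairing by set number was therefore seen, which does not show that the arrays were unpaired. A replicate block on the set gave 1725 calls and no replicate block 1859. Dye effects numbered 6, 11 with incomplete probes, 427 without and 674 with the replicate block, 0 with zeros kept (limma, 3304 at an unadjusted p under 0.05), and between 0 and 35 with 1 set left out (0 without set 1, with 1237 at an unadjusted p under 0.05, and 0 without set 2, with 3588).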
